A study of Rattus norvegicus with 24 samples.

Results

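The transcript assembly of these libraries held 42334 loci, of which 15693 carried no gene name, and 6016 of those 15693 had a mean normalized count of at least 10 over the 24 libraries. The 6016 unnamed loci are the subject of this account, and the 15678 named loci that reached the same mean serve as the comparison. A normalized count is the number of sequenced fragments at a locus divided by the scaling factor of its library. The loci were chosen by their mean over all groups, so their levels are given as a description and without a test.

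The libraries came from adult male Sprague-Dawley rats, 3 months after an operation. In the TBI group (6 rats) a fluid pulse had struck the left side of the exposed brain (lateral fluid-percussion), and in the sham group (6 rats) the same operation was done without the pulse. Each rat gave 1 library of perilesional cortex, the cortex bordering the lesion, and 1 library of ipsilateral thalamus, the thalamus of the injured side, so 4 groups of 6 libraries were compared: sham cortex, TBI cortex, sham thalamus and TBI thalamus. The study chose its TBI rats from a larger cohort for signs of chronic inflammation around the lesion on imaging, so the group does not stand for all injured rats. The libraries were made from poly(A) RNA with a kit that keeps the strand of each fragment, but the table of loci gives no strand, so reads from a gene and from an antisense partner cannot be told apart at an unnamed locus. In whole tissue, fewer cells of a type and less RNA per cell cannot be told apart either.

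A transcript assembler joins overlapping aligned reads into transcripts whether or not a gene is annotated there. A locus without a name can therefore be a long noncoding RNA, a gene that the annotation of that time lacked, a transcript that starts backwards from a promoter, or a stretch of a known gene beyond its annotated end. Long noncoding RNAs are known in brain for low levels and for marked restriction to particular regions and cell types. Many lie beside genes of transcription factors, and a promoter rich in CG dinucleotides often starts transcripts in both directions.

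Each library held between 30568927 and 54608922 fragments (median 39660895.5), and the 6016 unnamed loci took between 1.81% and 2.12% of the normalized counts. Counts were whole fragments, and 3 fragments corresponded to a normalized count of 2.06 to 3.76 depending on the library. The genes that mark thalamus summed to between 107327 and 145918 in sham thalamus and to between 5421 and 5959 in sham cortex, and the genes that mark cortex summed to between 86528 and 90632 in sham cortex and to between 13536 and 21448 in sham thalamus. The 16 microglia genes summed to 25473 to 27663 in sham cortex and 35577 to 44301 in TBI cortex, and to 27232 to 36079 in sham thalamus and 58410 to 75048 in TBI thalamus, without overlap. Neuron genes were lower in TBI libraries in both regions, again without overlap (441221 to 543219 against 597765 to 619721 in cortex, and 215904 to 267293 against 326230 to 388320 in thalamus). Astrocyte genes were higher without overlap in TBI libraries (373930 to 424268 against 328647 to 355111 in cortex, and 357978 to 420953 against 231856 to 257954 in thalamus). The thalamus genes were lower in TBI thalamus (86861 to 101239) than in any sham thalamus library, and the cortex genes were lower in TBI cortex (72455 to 82328) and TBI thalamus (9070 to 12344) than in any sham library of that region. Genes of choroid plexus, the tissue that makes cerebrospinal fluid, varied from 635 to 264682 between libraries and were highest in TBI thalamus of rat 45 (264682) and sham thalamus of rat 50 (108828). The part of these shifts in the results at unnamed loci was not tested. Each library of a group came from another rat, so p-values of TBI against sham within a region measure the spread between rats. Both regions came from the same rats. The main fits between regions, and of the difference of effects, treated those libraries as independent, and a fit with the rat as a block was an alternative.

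The table of loci gives a position but no sequence, and the sequence of the genome it used was not analysed here. Positions of loci are printed as that table has them (build Rnor_5.0 in the submitters' notes), and whether it counts bases from 0 or from 1 was not given in the sources used here. The promoters of 4 named genes that lie next to an unnamed locus are shown instead, since in each case the unnamed locus lay within 250 bases of the written start side of the gene and its level is described below. Gbx2, Lef1 and Emx1 encode transcription factors that shape thalamus or cortex, and Scn4b encodes a small subunit of voltage-gated sodium channels. The sequences are from RefSeq (build GRCr8), run 5′ to 3′ on the strand of the gene and cover 300 bases each, with every CG dinucleotide in capitals. They were chosen after the values at their neighbours had been seen. Only pairs with locus and gene both called in the same direction, by at least 1 on the log2 scale, were considered. Their agreement was thus a condition of the choice. In all, 274 tested genes had an unnamed locus this close on the 5′ side. The other genes, Ankrd63 among them, are not shown, so the 4 do not stand for such pairs.
Gbx2 (chr9:97959834-97960133, minus strand): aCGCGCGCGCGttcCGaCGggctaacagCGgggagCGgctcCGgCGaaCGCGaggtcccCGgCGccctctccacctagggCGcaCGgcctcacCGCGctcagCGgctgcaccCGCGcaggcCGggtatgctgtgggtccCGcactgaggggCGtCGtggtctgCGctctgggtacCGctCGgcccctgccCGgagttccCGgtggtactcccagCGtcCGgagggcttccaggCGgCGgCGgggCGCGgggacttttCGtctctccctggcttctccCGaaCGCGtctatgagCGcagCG
Lef1 (chr2:222340463-222340762, plus strand): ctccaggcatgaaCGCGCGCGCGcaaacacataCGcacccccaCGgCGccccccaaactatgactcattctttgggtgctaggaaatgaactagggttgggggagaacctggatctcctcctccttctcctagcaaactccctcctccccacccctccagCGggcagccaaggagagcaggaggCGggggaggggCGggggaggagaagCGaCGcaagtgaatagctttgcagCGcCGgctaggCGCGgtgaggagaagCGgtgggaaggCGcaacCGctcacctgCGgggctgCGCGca
Emx1 (chr4:119282442-119282741, plus strand): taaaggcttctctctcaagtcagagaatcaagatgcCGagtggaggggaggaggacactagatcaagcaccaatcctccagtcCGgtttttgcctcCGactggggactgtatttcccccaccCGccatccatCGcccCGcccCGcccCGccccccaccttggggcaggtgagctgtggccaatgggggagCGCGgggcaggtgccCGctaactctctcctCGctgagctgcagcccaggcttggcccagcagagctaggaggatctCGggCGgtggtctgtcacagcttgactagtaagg
Scn4b (chr8:54343623-54343922, plus strand): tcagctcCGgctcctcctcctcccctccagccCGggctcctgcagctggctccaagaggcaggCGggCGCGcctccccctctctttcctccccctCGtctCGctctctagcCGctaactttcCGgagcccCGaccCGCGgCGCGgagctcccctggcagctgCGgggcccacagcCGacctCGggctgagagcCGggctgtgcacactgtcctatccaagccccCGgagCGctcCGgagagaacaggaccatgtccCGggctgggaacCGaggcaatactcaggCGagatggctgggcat
The promoter of Gbx2 held 44 CG dinucleotides, that of Lef1 23, that of Emx1 14 and that of Scn4b 24, and the median over 27457 rat promoters was 7. The share of those promoters with fewer was 98.0% for Gbx2, 78.9% for Lef1, 63.8% for Emx1 and 80.5% for Scn4b.

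The locus column of the deposited table places 63 unnamed loci nearest to a named microRNA locus, and a pair of them changed with injury in cortex at high levels. MicroRNAs are short RNAs that repress messenger RNAs matching their seed, bases 2 to 8, and the precursor of a microRNA is cut from a longer transcript. The mature RefSeq sequences (5′ to 3′) of those 2 microRNA genes are shown with the seed in capitals. No seed is shared among the 4.
rno-miR-129-5p: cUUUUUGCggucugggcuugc
rno-miR-129-2-3p: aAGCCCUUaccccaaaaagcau
rno-miR-135b-5p: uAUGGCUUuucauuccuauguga
rno-miR-135b-3p: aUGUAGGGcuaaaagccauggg

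The unnamed loci were low and short. Their median mean was 27.3 normalized counts (range 10.0 to 23897) against 886 for named loci (counts, not corrected for length), and 2292 of the 6016 had a mean under 20 while 1054 reached 100 and 114 reached 1000. Of the 6016, 5524 (91.8%) were above 0 in all 24 libraries, against 98.2% of named loci, and a library held between 5880 and 5960 of them. The median written span was 2040 bases (50 to 1633060) against 31100 for named loci, and 5526 loci (91.9%) had 1 group of start sites. Where no other locus held the same written span, the median was 1406 bases over 4393 loci.

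By position, 900 loci (15.0%) were written with the same span as a named locus, 2606 (43.3%) lay within 5000 bases of one without sharing its span, 1695 (28.2%) lay over 5000 and up to 50000 bases away and 815 (13.5%) lay farther. For named loci and their nearest other named locus the shares were 30.2%, 32.1%, 29.2% and 8.46%. Same spans and gaps of up to 5000 bases together held 58.3% of unnamed and 62.3% of named loci, so unnamed loci were not closer to named ones. Gaps of 1 to 1000 bases were held by 1493 unnamed loci (24.8%) and by 15.1% of named loci. All 900 loci that touched a named locus carried exactly its start and end, as did all 4742 overlapping named loci, so the column gives the span of the whole group of overlapping transcripts and the place of the unnamed locus inside it is not known. Among the 1431 loci within 5000 bases whose neighbour had a known strand in RefSeq, 799 (55.8%) lay on its 5′ side and 632 (44.2%) on its 3′ side, where named loci gave 1529 (45.9%) and 1800 (54.1%).

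**Figure D1:**
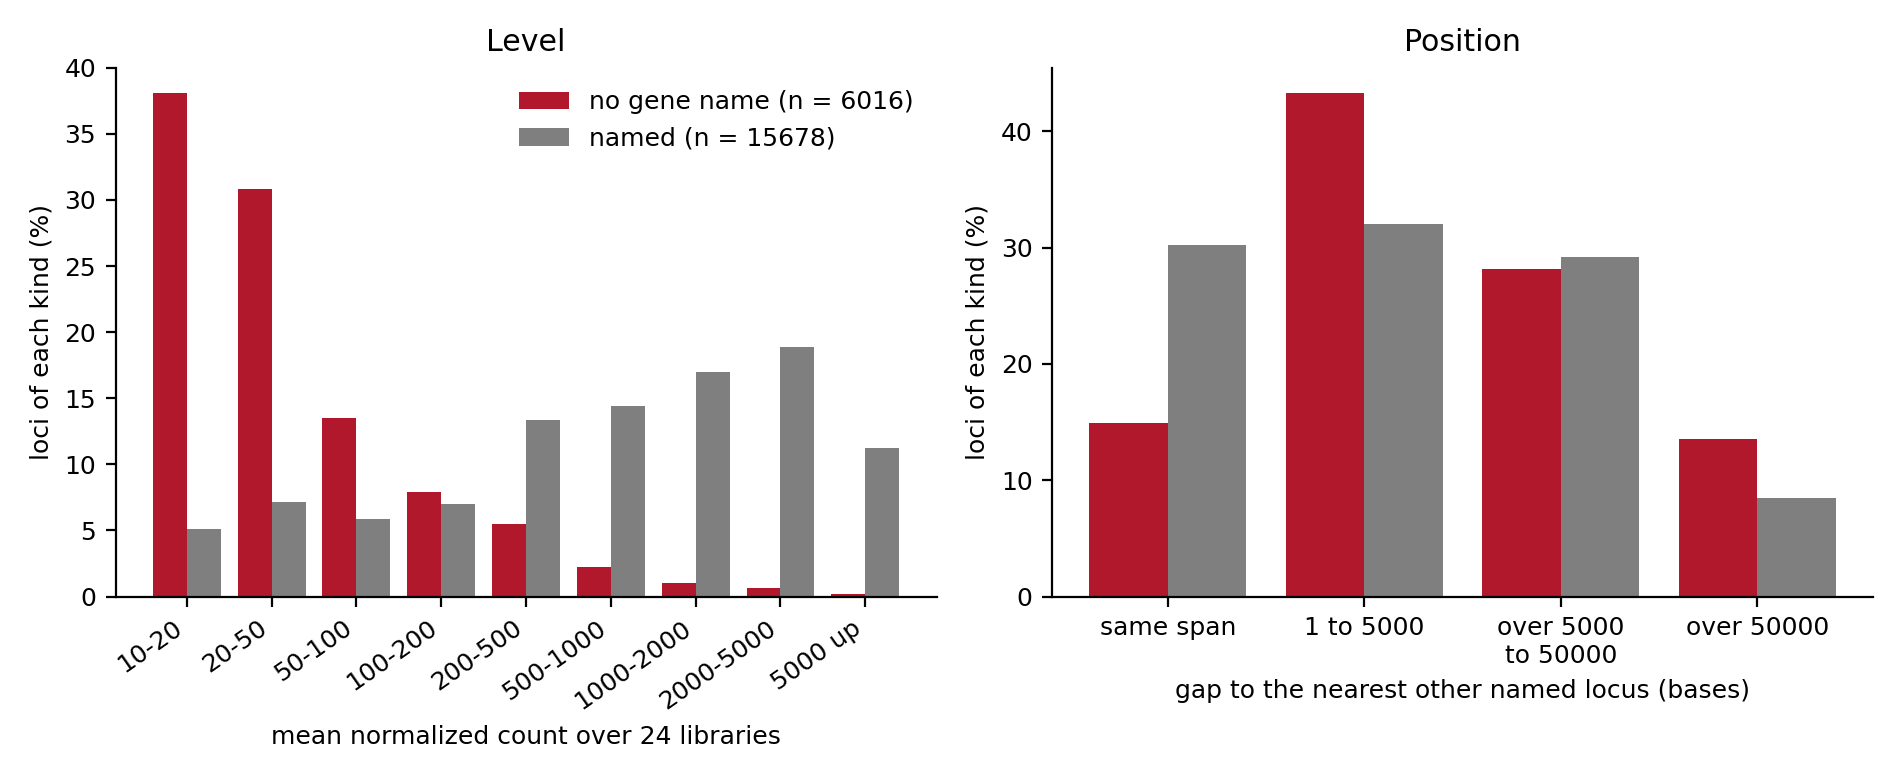
Share of loci (%) by mean normalized count over 24 libraries (left) and by gap in bases to the nearest named locus (right), for 6016 unnamed loci (red) and 15678 named loci (grey). The unnamed loci pile up in the lowest classes of level. They hold the larger share of gaps of 1 to 5000 bases (43.3% against 32.1%) and the smaller share of same spans (15.0% against 30.2%).

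Unnamed loci also sat next to each other. With a gap of at most 1000 bases between neighbours they formed 4414 runs, of which 1062 held 2 or more loci and the largest held 18, so 2664 of the 6016 had an unnamed neighbour and may be pieces of 1 transcript. In the newer RefSeq annotation of GRCr8, the named genes on either side of 3708 loci still lay on the same chromosome, in either orientation. The lengths of the interval between them differed by at most a factor of 2. It held at least 1 annotated long noncoding RNA for 2077 loci (56%), at least 1 protein-coding gene for 1266 (34.1%) and no gene at all for 950 (25.6%). For named loci, whose interval spans the named locus itself, these shares were 46.2%, 92.2% and 4.03%. These intervals give context only, since the coordinates of the builds were not matched and a locus was assigned to no RefSeq gene. Per 100 named loci the chromosomes held between 27.7 (chromosome 10) and 49.0 (chromosome 17) unnamed loci.

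The 10 unnamed loci with the highest means ran from 7504 to 23897 normalized counts. XLOC_024910 (chr3:117945556-117959291) had the highest mean, 23897, and lay 7085 bases from Chp1, a calcium-binding protein that partners sodium-proton exchangers. The RefSeq interval between its flanks, Chp1 and Nusap1, holds Oip5-as1, an abundant long noncoding RNA. Its normalized count ran from 28339 to 34954 (median 31159) in sham cortex and from 17223 to 27756 (median 24208) in TBI cortex, and from 20160.0 to 27781 (median 24074) in sham thalamus and from 14923 to 18973 (median 16252) in TBI thalamus. No TBI library reached the lowest sham library in either region, with log2 differences of −0.44 ± 0.09 (SE; adjusted p = 0.0039) in cortex and −0.53 ± 0.09 (adjusted p = 0.00043) in thalamus. Chp1 fell by 0.27 and 0.30 on the log2 scale (adjusted p = 0.0016 and 0.00020), and the test of the ratio between locus and gene did not pass 0.05 (adjusted p = 0.21 and 0.090).

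XLOC_004972 (chr1:228133588-228137229), between Ltbp3 and Frmd8, moved the other way. Sham cortex ran from 6777 to 7775 (median 7196) and TBI cortex from 9747 to 14691 (median 13725), and sham thalamus from 7017 to 9541 (median 8428) and TBI thalamus from 18782 to 24182 (median 20035). All TBI libraries lay above all sham libraries in both regions. The log2 difference was 0.80 ± 0.10 in cortex (adjusted p = 9.2e-05) and 1.30 ± 0.08 in thalamus (adjusted p = 1.1e-07), and the difference between those effects, 0.51 ± 0.13, passed the threshold (adjusted p = 0.026) except without sham thalamus of rat 55 (adjusted p = 0.054) and without the library highest in choroid plexus genes in each group (adjusted p = 0.064). Frmd8, which helps carry an inflammatory sheddase to the cell surface, lay 8969 bases away and rose by 0.56 ± 0.10 in cortex (adjusted p = 0.0011) and 0.24 ± 0.08 in thalamus (adjusted p = 0.040), the latter lost in 9 of 12 fits that left out 1 library (adjusted p up to 0.089). In thalamus the locus rose beyond the gene by 1.06 ± 0.12 (adjusted p = 0.00013). RefSeq annotates 2 long noncoding RNAs between Ltbp3 and Frmd8.

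Among the other 8 of these loci, some differed mainly between regions and some fell with injury. XLOC_021603 (mean 20005), 3069 bases from Rab3c, a vesicle GTPase of synapses, ran from 8384 to 10829 in sham cortex and from 26907 to 39600.5 in sham thalamus. That difference, 1.83 ± 0.09 (adjusted p = 4.1e-11), stood beside 1.92 ± 0.10 for Rab3c itself. XLOC_037381 (mean 20181) and XLOC_037380 (mean 8581) lay between Arpp19 and Myo5c, an interval where RefSeq places Myo5a, a motor that carries vesicles in neurons, and fell in TBI cortex (−0.37 ± 0.06, adjusted p = 0.00050; −0.25 ± 0.05, adjusted p = 0.0051) and TBI thalamus (−0.55 ± 0.11, adjusted p = 0.0025; −0.58 ± 0.14, adjusted p = 0.0076). XLOC_010154 (mean 10944), in the interval that holds the long noncoding RNA gene Miat, had no called change with TBI (−0.13 ± 0.10, adjusted p = 0.41, and −0.04 ± 0.10, adjusted p = 0.82) and was lower in sham thalamus than in sham cortex (−0.82 ± 0.10, adjusted p = 2.8e-06). XLOC_011930 (mean 7933), 73 bases from 6330403A02Rik, ran from 4449 to 4897 in sham cortex and from 11238 to 12763 in sham thalamus (1.37 ± 0.04, adjusted p = 1.4e-13), beside 1.29 ± 0.05 for that gene. XLOC_021276 (mean 7504), 302 bases from the start side of Hs2st1, a heparan sulfate sulfotransferase, was lower in sham thalamus (−0.26 ± 0.04, adjusted p = 2.2e-05), as was the gene (−0.83 ± 0.04), and had no called change with TBI (adjusted p = 0.071 and 0.57). XLOC_024506 (mean 9231), 5490 bases from Nfe2l2, the master regulator of the antioxidant response, differed by −0.14 ± 0.08 and −0.01 ± 0.04 (adjusted p = 0.26 and 0.86), while Nfe2l2 rose by 0.35 ± 0.06 and 0.55 ± 0.09 (adjusted p = 0.0014 and 0.00059), so the ratio of locus to gene fell in both regions (−0.49 ± 0.12, adjusted p = 0.014, and −0.56 ± 0.11, adjusted p = 0.0032). Without the library highest in choroid plexus genes in each group, the ratio in cortex did not pass the threshold (adjusted p = 0.066).

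Between regions of the sham brain, 3132 of the 6016 unnamed loci (52.1%) differed at an adjusted p under 0.05, 1216 higher in thalamus and 1916 higher in cortex, where the background over all 21694 loci tested was 59.0% (29.9% higher in thalamus and 29.2% higher in cortex). More loci were thus higher in cortex, with a median log2 difference of −0.16 over the unnamed loci against −0.0034 over all loci. Among the called loci, 195 (3.24% of the unnamed loci) were at least 8-fold higher in thalamus and 268 (4.45%) at least 8-fold higher in cortex. Of the named loci 1.86% and 1.47% were called with differences of that size, and the shares were not compared by a test. The sham libraries of the regions did not overlap at 1934 of the called loci (32.1% of all unnamed loci, background 39.9%). All differences are on the scale of log2(normalized count + 1), which understates changes at low levels. The filter bears on these counts, because 522 loci with a mean under 10 in cortex had passed through thalamus (409 of them called higher there and 0 lower) and 803 with a mean under 10 in thalamus had passed through cortex (630 called higher there and 0 lower). Of the 4261 loci with a mean of at least 10 in each of the 4 groups, 737 were higher in thalamus and 1199 higher in cortex. The same filter was not applied to named loci, so these 2 counts have no background and only describe the filter.

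XLOC_037370 (chr8:80320446-80377126), 197 bases from Foxb1, a forkhead factor of the embryonic diencephalon, was at 0 in all 6 sham cortex libraries and ran from 235 to 388 (median 333) in sham thalamus, at least 100-fold higher (against a floor of 3 fragments in each library). Foxb1 was at 0 in all sham cortex libraries too and ran from 87.8 to 141 (median 121) in sham thalamus. XLOC_039755 (chr9:96756785-96760770), 242 bases from the start side of Gbx2, ran from 0 to 2.23 (median 0) in sham cortex and from 213 to 289 (median 262) in sham thalamus, a log2 difference of 7.70 ± 0.28 (adjusted p = 1.1e-12). Only rat 50 had reads at this locus among the sham cortex libraries. XLOC_040547, written with the same span, was at 0 in all 12 cortex libraries and ran from 28.0 to 65.1 (median 50.7) in sham thalamus. Gbx2, whose promoter with 44 CG dinucleotides faces this span, ran from 0 to 1.89 in sham cortex and from 617 to 943 (median 724) in sham thalamus (9.11 ± 0.27, adjusted p = 8.0e-14).

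A pair of loci flanked Six3, a homeobox gene of the forebrain and eye. XLOC_032196 (chr6:8815646-8817659), 1106 bases past its end, ran from 1.13 to 10.8 (median 2.58) in sham cortex and from 582 to 993 (median 709) in sham thalamus, and XLOC_033169, 2548 bases before its start, from 0 to 7.55 (median 2.26) and from 328 to 645 (median 399). Six3 itself ran from 0 to 2.32 in sham cortex and from 109 to 247 (median 208) in sham thalamus. At all 3 the sham groups lay far apart. XLOC_022650 (chr2:254779555-254781013), 116 bases from the start side of Lef1, a transcription factor of Wnt signalling, ran from 0 to 0.944 in sham cortex and from 28.6 to 61.6 (median 47.0) in sham thalamus (5.22 ± 0.29, adjusted p = 1.7e-10). XLOC_033661, 5994 bases from Abhd12b, was at 0 in all sham cortex libraries and ran from 65.9 to 130.3 (median 105) in sham thalamus, at least 32.7-fold higher, and Abhd12b had the same pattern (6.83 ± 0.27, adjusted p = 2.6e-12). XLOC_010077 (chr12:47128348-47140176) lay 87397 bases from Suds3 and ran from 0 to 1.72 in sham cortex and from 228 to 367 (median 295) in sham thalamus (7.75 ± 0.28, adjusted p = 8.8e-13), where Suds3, a subunit of a histone deacetylase complex, was slightly lower in thalamus (−0.21 ± 0.05, adjusted p = 0.0022). XLOC_027858 and XLOC_034259 ran from 135 to 254 and from 119 to 247 in sham thalamus and stayed at or under 3.48 and 2.57 in sham cortex, with named neighbours whose means were under 10.

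On the cortex side the largest difference was at XLOC_039337 (chr9:47647201-47727891), in the interval between Tmem182 and Pou3f3, a POU-domain factor of upper-layer cortical neurons. It ran from 685 to 1128 (median 996) in sham cortex and was at 0 in 5 sham thalamus libraries and at 1.05 in that of rat 50. On the log2 scale the difference was −9.72 ± 0.21 (adjusted p = 2.3e-15), a value that depends on the added 1 because the thalamus group held 1 fragment. Its span is shared with 12 further loci. XLOC_021924 and XLOC_021926 (both chr2:142824963-142850411), 8038 bases from Anxa5, ran from 2488 to 2827 (median 2584) and from 135 to 182 (median 151) in sham cortex and from 2.10 to 12.5 and at 0 in sham thalamus. XLOC_021926 was thus at least 48.2-fold higher in cortex. Anxa5, a calcium-dependent phospholipid-binding protein, was only 0.55 ± 0.05 lower in thalamus (adjusted p = 3.2e-08), and its sham thalamus libraries held between 2684 and 3099.9.

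XLOC_021418 and XLOC_021419, adjacent loci 124971 and 115821 bases from Ssbp2, were at 286 to 389 (median 311) and at 162 to 307 (median 232) in sham cortex and at 0 in 5 of 6 sham thalamus libraries each. XLOC_031132, 16912 bases from Ccl21, ran from 145 to 227 (median 177) in sham cortex and was at 0 in sham thalamus except for 0.989 in rat 55. XLOC_022204 ran from 980.3 to 1858 (median 1550.5) against 1.98 to 63 (median 11.7). In each of these the sham groups lay far apart. XLOC_017435, written with the 906109-base span of Celf2, a splicing factor of neurons, ran from 223 to 422 (median 319) in sham cortex and from 0 to 6.26 (median 1.01) in sham thalamus, whereas Celf2 was high in both (13205 to 15515 and 7548 to 12573).

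Some loci lay next to genes of the list that marks cortex. XLOC_029102 (chr4:181545595-181547421) began 25 bases from the start side of Emx1, a homeobox gene of the dorsal telencephalon, and ran from 46.9 to 85.9 (median 73.7) against 0 to 5.25 (median 1.52) in sham thalamus (−4.76 ± 0.36, adjusted p = 7.0e-09). XLOC_024381, 1242 bases past the end of Tbr1, a T-box factor of deep-layer neurons, ran from 36.8 to 82.7 (median 56) against 1.06 to 9.89 (median 3.01). Of the 8 unnamed loci nearest to a gene of the cortex list, 7 were higher in cortex and 1 in thalamus. The background over all loci was 29.2% higher in cortex and 29.9% higher in thalamus. A locus at or near 0 in 1 region reaches the filter on the mean only through the other region, so its direction was fixed by the filter. All 7 loci nearest to a gene of the thalamus list were higher in thalamus. That last group included XLOC_002638, within the span of Tcf7l2, which was at 0 in all 12 cortex libraries and ran from 30.1 to 56.3 in sham thalamus, and XLOC_038638, within the span of Zic4, at 6.97 to 21.5 against 119.7 to 181.

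**Figure D2:**
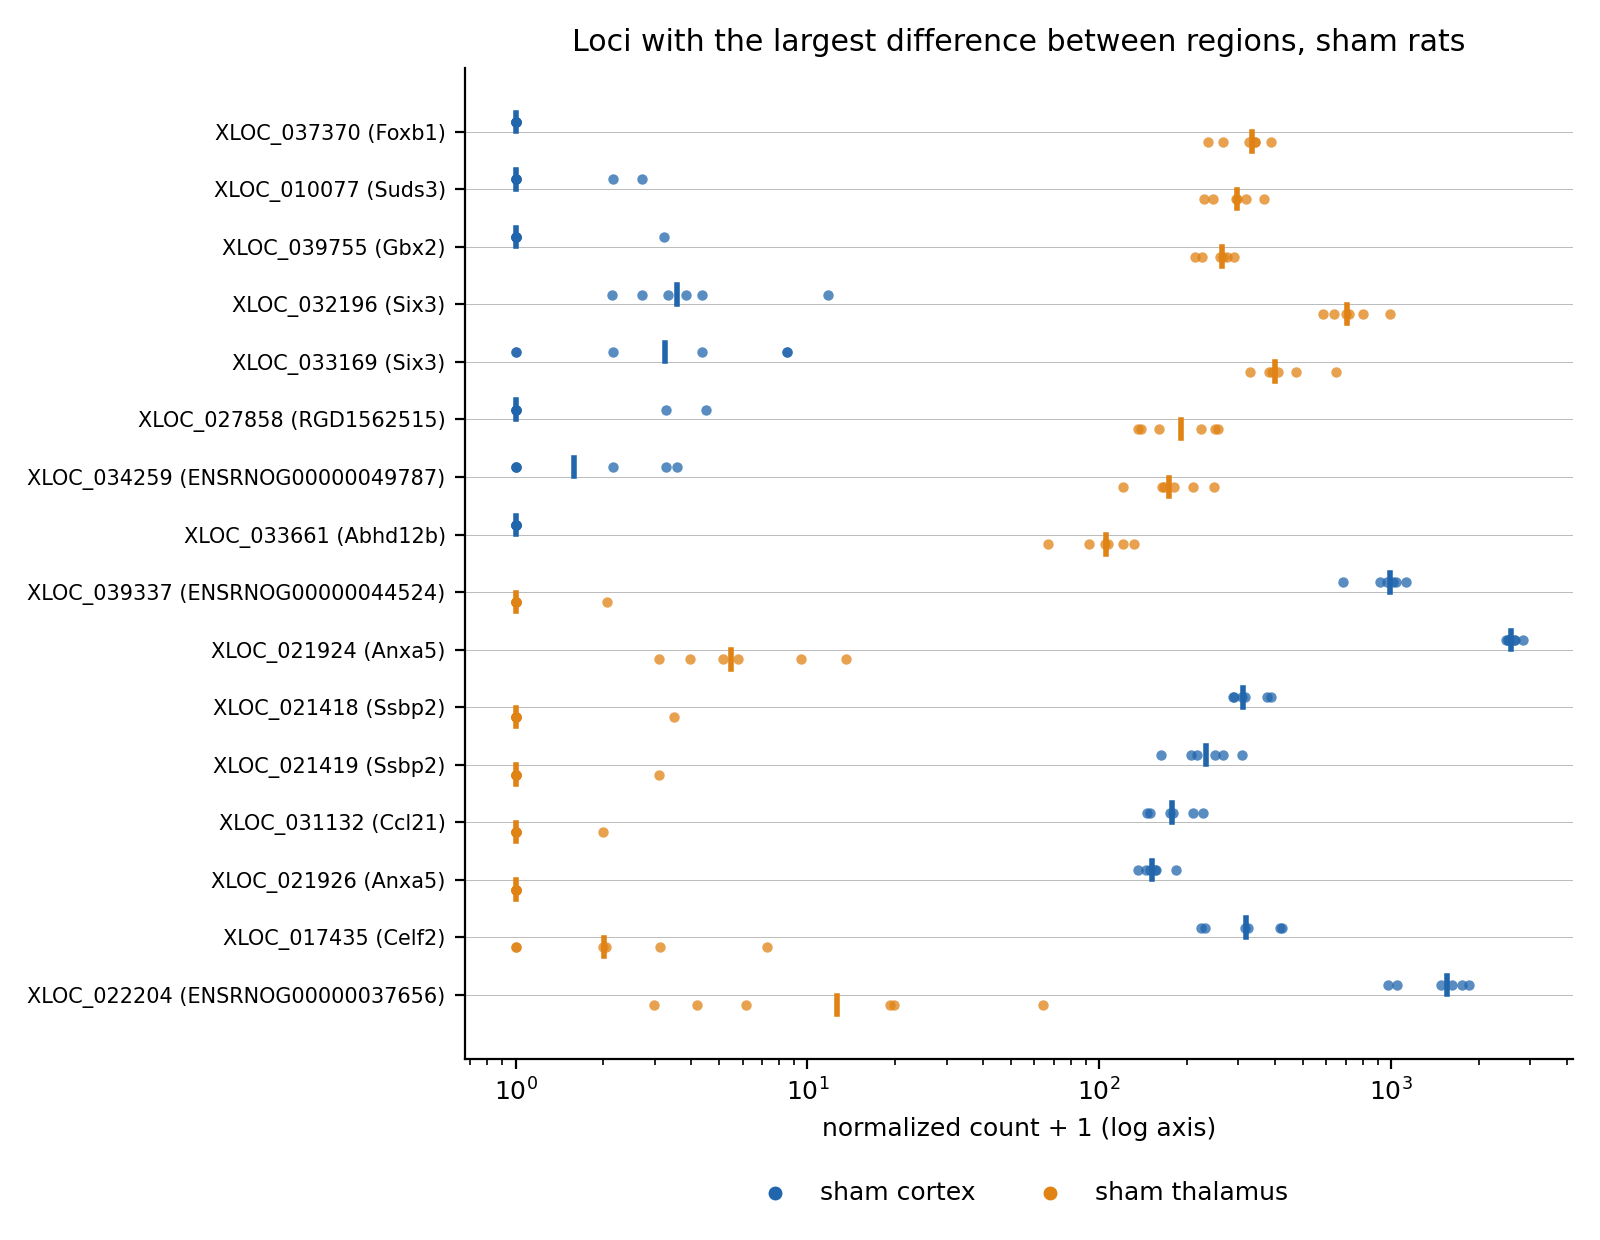
Normalized count + 1 (log axis) of 16 unnamed loci in the 6 sham cortex libraries (blue) and the 6 sham thalamus libraries (orange), with a tick at the median of each group. The 16 were picked as the largest differences among loci whose groups do not overlap, so the lack of overlap was fixed by the choice. The 8 upper loci, among them those next to Foxb1, Gbx2 and Six3, are at 0 or low in cortex. The 8 lower loci are at 0 or low in thalamus, where XLOC_022204 is not near 0 in every library.

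After injury, 634 unnamed loci (10.5%) differed between TBI cortex and sham cortex, 244 higher and 390 lower, where the background was 22.5% (11.0% higher, 11.5% lower) and named loci alone reached 27.1%. The groups did not overlap at 206 of them (3.42% of the unnamed loci, background 9.74%). Without the library that was highest in choroid plexus genes in each group, an alternative chosen after seeing the data that leaves 5 against 5, the count was 294 (132 higher, 162 lower), and without TBI cortex of rat 45 or of rat 63 alone the count was 459 or 727. The filter on the mean includes the TBI libraries. Of the 4261 loci with a mean of at least 10 in each of the 4 groups, 155 were called higher and 295 lower in TBI cortex. Sham cortex libraries serve both this comparison and the comparison between regions.

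The largest rise in cortex among called loci whose groups did not overlap was at XLOC_006907 (chr10:108048817-108050016), 93 bases from Card14, a scaffold that activates NF-kappaB. It was at 0 in sham cortex but for 0.858 in rat 32 and ran from 6.46 to 22.8 (median 11.6) in TBI cortex, and in thalamus it ran from 0 to 1.25 (median 0.477) in sham and from 15.2 to 47.7 (median 32) in TBI libraries. No sham library held more than 1 fragment, and every TBI library lay above them. The locus thus passed the filter on the mean only through TBI libraries, and it was picked for its lack of overlap. Its direction and separation were therefore fixed by the choice, and the values that follow are a description. The log2 differences were 3.61 ± 0.32 (adjusted p = 6.2e-06) and 4.40 ± 0.34 (adjusted p = 8.0e-07). Card14 rose from 21.2–31.7 to 76.7–185 in cortex (2.11 ± 0.19, adjusted p = 1.0e-05) and from 16.6–45.1 to 102–293 in thalamus (2.72 ± 0.25, adjusted p = 3.4e-06). The locus exceeded the gene by 1.50 ± 0.17 and 1.68 ± 0.26 (adjusted p = 0.00026 and 0.00093), but with 5 in place of 1 added before the logarithm the cortex value turned to −0.17 (adjusted p = 0.34) and the thalamus value was 0.09 (adjusted p = 0.80).

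A group of 4 loci between Pde12 and Asb14, where RefSeq places Dnah12, an axonemal dynein heavy chain of motile cilia, rose together in cortex. XLOC_015046 ran from 12.8 to 26.1 (median 18.5) in sham and from 73.8 to 323 (median 246) in TBI cortex, XLOC_015047 from 6.00 to 20.5 (median 10.7) and from 47.6 to 195 (median 135), and XLOC_015049 (chr16:2472863-2509106) from 33.0 to 48.8 (median 41.9) and from 115 to 519.9 (median 399.6). Sham and TBI cortex did not overlap at any of them, and rat 63 was the lowest of the TBI cortex libraries at all 4. The log2 differences were 3.42 ± 0.30, 3.43 ± 0.35, 3.00 ± 0.28 and, for XLOC_015048, 2.93 ± 0.42 (adjusted p from 6.0e-06 to 0.00029). In sham thalamus the same loci were already at 154 to 337, 91.3 to 204, 274 to 523 and 36.3 to 95.1, and their rise with TBI there was smaller, from 0.66 ± 0.18 to 1.14 ± 0.22 (for XLOC_015047 not past the threshold without the library highest in choroid plexus genes in each group, adjusted p = 0.058). The difference between the regions in the TBI effect passed the threshold at all 4 (−2.70 ± 0.36, −2.77 ± 0.41, −2.22 ± 0.34 and −1.79 ± 0.50, adjusted p from 4.9e-05 to 0.036), and for XLOC_015048 it did so in only 9 of 24 fits that left out 1 library (adjusted p up to 0.067 in the other 15) and not without the libraries highest in choroid plexus genes (adjusted p = 0.075). The nearest named genes were not called, with −0.09 ± 0.08 for Pde12 and −0.22 ± 0.18 for Asb14 in cortex (adjusted p = 0.47 and 0.42), and the ratio of locus to gene rose by 3.15 ± 0.50 to 3.52 ± 0.38 (adjusted p from 0.00012 to 0.0019). The 4 loci share a neighbourhood and are not independent observations.

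Further rises in cortex came at loci that were low in sham cortex and higher in sham thalamus. XLOC_039808, in the interval where RefSeq places Crocc2, a homologue of the rootletin of ciliary roots, ran from 0.944 to 6.00 (median 3.94) in sham and from 8.33 to 54.1 (median 27.5) in TBI cortex (2.66 ± 0.44, adjusted p = 0.00083), and from 32.2 to 83.9 in sham and 31.8 to 116 in TBI thalamus (0.21 ± 0.31, adjusted p = 0.67). XLOC_013119, 2010 bases past the end of Spata18, a regulator of mitochondrial quality also known from sperm, ran from 0 to 3.23 (median 0) and from 3.57 to 15.2 (median 7.28) in cortex (2.46 ± 0.44, adjusted p = 0.0014). Spata18 rose from 1.16–8.49 to 10.7–122 (3.61 ± 0.49, adjusted p = 0.00019). XLOC_032006 (chr5:168567732-168569840), 87 bases from a locus named Rpl35a, ran from 14.6 to 32.9 (median 24.0) in sham and from 63.1 to 278 (median 137) in TBI cortex (2.44 ± 0.29, adjusted p = 6.2e-05), and the ribosomal protein locus was not called (0.28 ± 0.12, adjusted p = 0.12). At each of these 3 loci the cortex effect exceeded the thalamus effect, by 2.46 ± 0.57, 2.18 ± 0.54 and 1.66 ± 0.34 (adjusted p = 0.011, 0.018 and 0.0051), though at XLOC_013119 not with 5 added before the logarithm (adjusted p = 0.11). The summed choroid plexus genes overlapped between sham and TBI cortex (937 to 24033 against 1158 to 33180), and the part of sampled tissue in these rises was not tested.

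The 8 named falls in cortex were between 1.05 and 1.51 on the log2 scale, and XLOC_035272, XLOC_018582, XLOC_033966 and XLOC_033967 among them were higher in sham cortex than in sham thalamus. XLOC_035272 (chr7:139201990-139203207), 2515 bases from the olfactory receptor gene Olr1108, ran from 32.4 to 68.9 (median 44.4) in sham and from 10.2 to 25 (median 16.4) in TBI cortex and was at 0 in all 12 thalamus libraries. The groups did not overlap (−1.51 ± 0.24, adjusted p = 0.00055), and Olr1108 fell too, from 33.7–77.5 to 18.0–31.5 (−1.26 ± 0.21, adjusted p = 0.00088). XLOC_033967 and XLOC_033966, neighbours in the interval between Vrk1 and the zinc finger gene Bcl11b (BCL11B in the table), ran from 474 to 688 (median 565) and from 90.0 to 130.04 (median 99.8) in sham cortex and from 187 to 361 (median 254) and from 34 to 74.6 (median 46.2) in TBI cortex. Their falls were −1.08 ± 0.14 (adjusted p = 0.00013) and −1.10 ± 0.18 (adjusted p = 0.00086), and Vrk1, 161023 and 157707 bases away, was not called (0.01 ± 0.08, adjusted p = 0.92). XLOC_033967 also fell in thalamus, from 3.76–42 to 0–4.06 (−2.93 ± 0.57, adjusted p = 0.0017), where the groups overlapped.

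XLOC_018582, 17981 bases past the end of Mapk4, ran from 38.3 to 56 (median 50.2) in sham and from 12.7 to 27.6 (median 23.3) in TBI cortex (−1.11 ± 0.18, adjusted p = 0.00079), against −0.09 ± 0.07 for Mapk4 (adjusted p = 0.38). Beyond the end of Olfm1, whose secreted product is abundant in neurons, XLOC_025763 ran from 34.4 to 53.2 (median 42.2) and from 11.9 to 26.8 (median 19.4), and XLOC_025764 from 15.6 to 23.6 and from 5.95 to 15.2. These falls were −1.15 ± 0.22 and −1.05 ± 0.22 (adjusted p = 0.0021 and 0.0039), and Olfm1 fell by 0.19 ± 0.05 (adjusted p = 0.018, or 0.067 without the libraries highest in choroid plexus genes). XLOC_021608 and XLOC_019621, 54270 and 418896 bases from the nearest named locus, fell as well, by 1.50 ± 0.22 and 1.06 ± 0.16 (adjusted p = 0.00035 and 0.00049). XLOC_019621 also fell in thalamus, from 93.9–131 to 34.5–67.4 (−1.04 ± 0.16, adjusted p = 0.00030).

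In thalamus 837 unnamed loci (13.9%) differed between TBI and sham, 395 higher and 442 lower, where the background was 27.9% (11.6% higher, 16.3% lower) and named loci reached 33.3%. The split depended on scaling: with TMM factors it was 442 higher and 368 lower, and with edgeR on whole fragments 473 and 353. The groups did not overlap at 307 loci (5.10% of the unnamed loci, background 14.3%). Leaving out the library highest in choroid plexus genes in each group gave 534 (251 higher, 283 lower). Of the 4261 loci with a mean of at least 10 in each of the 4 groups, 284 were called higher and 343 lower in TBI thalamus, again without a background at that filter. Of the loci called in each region, 111 rose in both, 45.5% of the cortex rises and 28.1% of the thalamus rises, and 111 fell in both, 28.5% and 25.1%. Among named loci those shares were 55.6% and 56.1% for rises and 58.9% and 40.2% for falls. Opposite calls in the regions were rare, 2 loci in each direction.

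Beside XLOC_006907, 2 of the largest rises in thalamus lay past the end of Batf3. XLOC_012011 and XLOC_012013, 125 and 4336 bases from this gene, which encodes a transcription factor of dendritic cells, ran from 3.76 to 14.9 (median 6.45) and from 11.5 to 20.8 (median 15.3) in sham thalamus and from 27.2 to 69.1 (median 39.5) and from 48.8 to 106 (median 64.2) in TBI thalamus. They rose by 2.37 ± 0.32 and 2.03 ± 0.20 (adjusted p = 9.5e-05 and 6.9e-06), and by 2.17 ± 0.50 and 2.16 ± 0.33 in cortex (adjusted p = 0.0063 and 0.00043), with no overlap in either region. Batf3 itself had a mean of 3.61 and was not tested. XLOC_019161, written with the span of Irf8, a factor that microglia require, ran from 4.15 to 14.3 (median 6.64) and from 18.6 to 38.6 (median 22.4) (1.71 ± 0.28, adjusted p = 0.00050), and Irf8 rose from 305–443 to 843–1156 (1.47 ± 0.11, adjusted p = 5.9e-07). XLOC_001920, 1556 bases from Itgam, the integrin chain of microglia and other myeloid cells, ran from 18.8 to 33.6 (median 29.9) and from 36.6 to 104 (median 70.6) (1.25 ± 0.24, adjusted p = 0.0014), beside 0.90 ± 0.16 for Itgam. The summed microglia genes, given above, did not overlap between sham and TBI thalamus either.

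XLOC_034928 (chr7:103361864-103433507), in the long interval between Myc and Adcy8 that holds the long noncoding RNA gene Pvt1, ran from 3.96 to 9.55 (median 6.27) in sham and from 17.1 to 38.6 (median 25.2) in TBI thalamus (1.78 ± 0.28, adjusted p = 0.00037). Myc rose by 0.77 ± 0.12 (adjusted p = 0.00040), and the locus exceeded it by 1.01 ± 0.25 (adjusted p = 0.014). In cortex the same locus ran from 10.2 to 30.2 in sham and from 21.6 to 29.7 in TBI libraries (0.33 ± 0.24, adjusted p = 0.34), and the regions differed in effect by 1.45 ± 0.37 (adjusted p = 0.023), though not without the library highest in choroid plexus genes in each group (adjusted p = 0.070). XLOC_004684, 3688 bases from Cpxm2, a carboxypeptidase-like secreted protein, ran from 0 to 3.76 (median 1.57) in sham and from 6.11 to 36.6 (median 8.79) in TBI thalamus (2.32 ± 0.45, adjusted p = 0.0015), beside 1.44 ± 0.36 for Cpxm2 (adjusted p = 0.0088). Rat 45 was highest at both and also had the highest choroid plexus sum, and the rise at XLOC_004684 remained past the threshold without it. XLOC_005423, 59659 bases past Gpam, ran from 0 to 7.26 (median 3.36) and from 11.0 to 24.4 (median 13.7) (2.11 ± 0.46, adjusted p = 0.0035), where Gpam rose by 0.21 ± 0.06. XLOC_014183, whose nearest named locus had a mean of 0.945, ran from 4.25 to 19.1 (median 6.59) and from 27.2 to 46.7 (median 32.6) (2.02 ± 0.29, adjusted p = 0.00018).

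**Figure D3:**
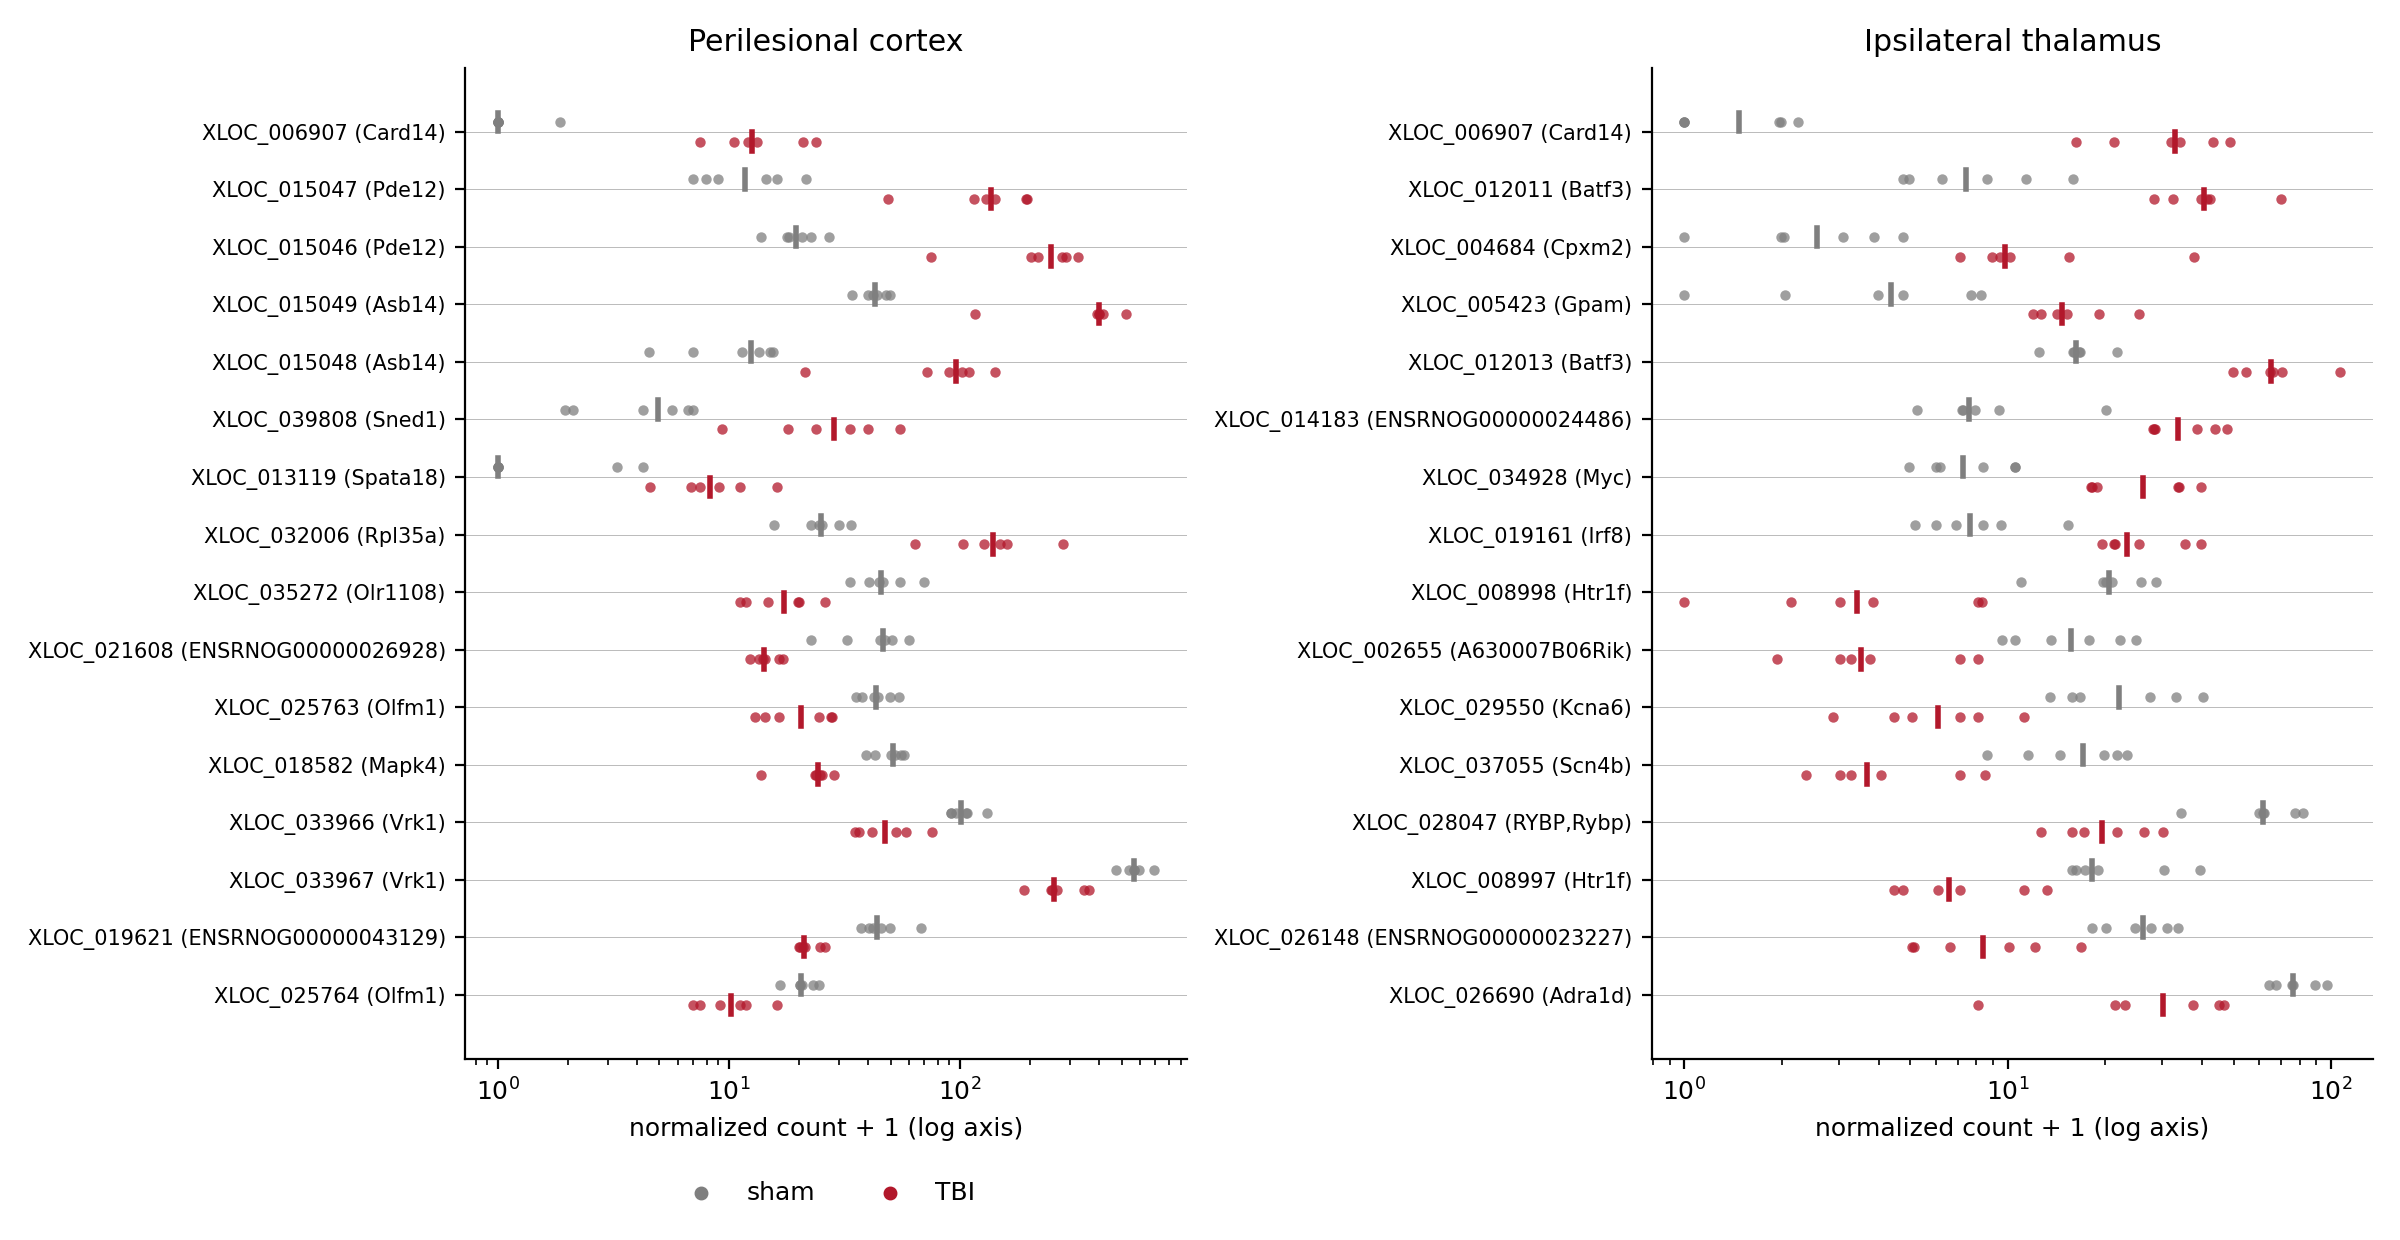
Normalized count + 1 (log axis) of the unnamed loci with the largest non-overlapping changes, 16 in perilesional cortex (left) and 16 in ipsilateral thalamus (right), in the 6 sham (grey) and 6 TBI (red) libraries, with a tick at each median. Rises start near 0 at loci such as XLOC_006907, and at none of the 32 rows do the sham and TBI points of the tested region overlap.

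The named falls in thalamus included loci beside a serotonin receptor, an adrenergic receptor and ion channel subunits. XLOC_008998 and XLOC_008997, 4952 and 6339 bases past the end of Htr1f, a serotonin receptor, ran from 10.0 to 27.7 (median 19.5) and from 14.8 to 38.4 (median 17.2) in sham and from 0 to 7.34 (median 2.42) and from 3.44 to 12.2 (median 5.60) in TBI thalamus. They fell by 2.55 ± 0.47 and 1.59 ± 0.33 (adjusted p = 0.0010 and 0.0025), and Htr1f fell by 1.31 ± 0.28 (adjusted p = 0.0034). XLOC_026690, 79 bases past the end of Adra1d, an adrenergic receptor, ran from 63.3 to 96.4 (median 75.0) and from 7.11 to 45.7 (median 29.2) (−1.57 ± 0.35, adjusted p = 0.0044), beside −1.14 ± 0.19 for Adra1d (adjusted p = 0.00053). In cortex neither moved past the threshold (−0.09 ± 0.13 and −0.15 ± 0.09, adjusted p = 0.64 and 0.28), and the regions differed in effect at both (−1.48 ± 0.39, adjusted p = 0.025, and −0.99 ± 0.22, adjusted p = 0.0083).

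XLOC_037055 (chr8:48066988-48067443), 111 bases from the start side of Scn4b, ran from 7.64 to 22.3 (median 16.1) in sham and from 1.38 to 7.51 (median 2.66) in TBI thalamus (−1.88 ± 0.36, adjusted p = 0.0014). The sodium channel gene fell from 3999–6563 to 525–1861 (−2.17 ± 0.24, adjusted p = 1.7e-05), the ratio between them was not called (0.29 ± 0.39, adjusted p = 0.65), and this is the pair whose promoter with 24 CG dinucleotides is printed above. XLOC_029550, 7 bases from the start side of Kcna6, a voltage-gated potassium channel, ran from 12.5 to 39.1 (median 21.1) in sham and from 1.88 to 10.2 (median 5.09) in TBI thalamus (−1.94 ± 0.36, adjusted p = 0.0012), while Kcna6 ran from 11369 to 12748 and from 9519 to 12373 (−0.10 ± 0.06, adjusted p = 0.25), and the ratio of locus to gene fell by 1.84 ± 0.35 (adjusted p = 0.0032). XLOC_002655, 273 bases from A630007B06Rik, fell by 1.95 ± 0.37 (adjusted p = 0.0015) and its gene by 0.25 ± 0.07 (adjusted p = 0.012). XLOC_028047, between Prok2 and Rybp, ran from 33.4 to 80.9 (median 60.7) in sham and from 11.7 to 29.1 (median 18.5) in TBI thalamus (−1.62 ± 0.25, adjusted p = 0.00031). In sham cortex it ran from 2.32 to 10.2. XLOC_026148, between Plekha3 and Ccdc141 where RefSeq places Ttn, fell by 1.59 ± 0.31 (adjusted p = 0.0017) beside a fall of 1.14 ± 0.21 at its nearest named locus.

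The TBI effect differed between thalamus and cortex at 113 unnamed loci (1.88%, background 4.97%), 45 with the higher effect in thalamus (background 1.88%) and 68 with the higher effect in cortex (background 3.09%). Without the library highest in choroid plexus genes in each group the count was 46, with 16 and 30. At XLOC_037459, within the span of Ankrd34c, sham cortex ran from 36.3 to 67.0 and TBI cortex from 15.0 to 39.3, while sham thalamus ran from 8.49 to 16.8 and TBI thalamus from 10.2 to 25.7. It fell in cortex (−1.24 ± 0.22, adjusted p = 0.0014), had no called change in thalamus (0.57 ± 0.26, adjusted p = 0.12), and the effects differed by 1.81 ± 0.34 (adjusted p = 0.0023). XLOC_009090, 974 bases from the start side of Hunk, a kinase, ran from 176 to 199 (median 183) in sham and from 64.6 to 135 (median 93.0) in TBI cortex, and from 7.91 to 18.7 and 16.2 to 32.5 in thalamus. Its effects were −0.99 ± 0.15 (adjusted p = 0.00035) and 0.69 ± 0.24 (adjusted p = 0.041), and differed by 1.68 ± 0.27 (adjusted p = 0.00050). The thalamus call was lost in 7 of 12 fits that left out 1 library (adjusted p up to 0.091) and without the libraries highest in choroid plexus genes (adjusted p = 0.13). Hunk had −0.65 ± 0.16 in cortex (adjusted p = 0.0085) and an effect difference of 0.88 ± 0.21 (adjusted p = 0.013).

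In the other direction, 3 loci were at or near 0 in sham cortex and also in the lowest TBI cortex library. XLOC_032266, within the span of Clip4, ran from 0 to 0.858 (median 0) in sham and from 0 to 20.9 (median 12.9) in TBI cortex, and the groups touched because 1 TBI library was at 0. Without that library (rat 63) the cortex difference rose from 3.01 ± 0.62 (adjusted p = 0.0034) to 3.64. In thalamus it ran from 16.8 to 80.2 in sham and from 20.4 to 72.2 in TBI libraries, and the effects differed by −3.30 ± 0.78 (adjusted p = 0.013), or −3.93 without rat 63. XLOC_023311, within the span of RGD1559879, had similar ranges (0 to 2.83 and 1.19 to 22.1 in cortex, difference of effects −2.80 ± 0.63, adjusted p = 0.0093), and its named partner rose with it in cortex (2.55 ± 0.47, adjusted p = 0.0016). XLOC_021136, 16352 bases from F3, ran from 0 to 1.89 in sham and 0 to 17.8 in TBI cortex, and its difference of effects (−2.82 ± 0.78, adjusted p = 0.033) was lost in 9 of 24 fits that left out 1 library (adjusted p up to 0.064), with 0.1 added before the logarithm (adjusted p = 0.058), without a filter (adjusted p = 0.055) and without the library highest in choroid plexus genes in each group (adjusted p = 0.11). At the Six3 loci rat 24 stood high in TBI cortex, at 103 for XLOC_032196 and 115 for XLOC_033169 against medians of 10.6 and 17.4, and Six3 was at 66.5 in the same library. Their differences of effects were −2.73 ± 0.67 and −3.31 ± 0.81 (adjusted p = 0.017 and 0.016).

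The ratio of an unnamed locus to its nearest named gene, taken on the scale of log2(normalized count + 1) and so dependent on the added 1 at low counts, could be tested at 4948 loci whose neighbour had a mean of at least 10. It changed with TBI at 357 in cortex (7.22%, background 16.3%; 170 higher against a background of 8.28% and 187 lower against 8.01%) and at 517 in thalamus (10.4%, background 21.2%; 319 higher against 11.0% and 198 lower against 10.2%). Without the library highest in choroid plexus genes in each group these counts were 166 and 315. The largest ratio rises in thalamus lay beside Ankrd63, whose product holds ankyrin repeats. Ankrd63 ran from 8.76 to 231 (median 69.3) in sham and from 1.22 to 19.3 (median 8.87) in TBI thalamus (−2.69 ± 0.69, adjusted p = 0.0096), and 3 loci on its start side rose: XLOC_026523 from 21.0–42.6 to 68.1–81.9, XLOC_026525 from 9.55–28.7 to 33.8–54.4 and XLOC_026527 from 6.37–21.3 to 22.5–44.0. Their rises were 1.23 ± 0.17, 1.11 ± 0.24 and 1.39 ± 0.29 (adjusted p = 0.00016, 0.0033 and 0.0026), and the ratios rose by 3.92 ± 0.81, 3.81 ± 0.84 and 4.09 ± 0.87 (adjusted p = 0.0054, 0.0081 and 0.0062). Sham thalamus of rat 34 weighed on these ratios, which were 4.51, 4.39 and 4.73 without it, and without sham thalamus of rat 26 the ratio of XLOC_026525 was 3.22. RefSeq places Plcb2 and Inafm2 among other genes between Ankrd63 and Disp2, the named flanks of these loci. XLOC_024883, only 115 bases from the start side of Ankrd63, was a cortex locus like the gene (144 to 204 in sham cortex, 1.05 to 10.5 in sham thalamus) and did not pass the threshold in thalamus (0.70 ± 0.44, adjusted p = 0.27).

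In several named pairs whose ratio fell, the gene was called higher and the locus was not called. Cp, the copper carrier ceruloplasmin, rose from 832–1219.8 to 1861–3606 in cortex and from 419–891 to 1454–4017 in thalamus, and XLOC_020347, 24280 bases from its start side, ran from 416 to 710.5 and from 250.3 to 649 in cortex and from 467 to 737 and from 269.7 to 658 in thalamus. The ratio fell by 1.67 ± 0.21 (adjusted p = 0.00048) and 2.35 ± 0.29 (adjusted p = 0.00018). In cortex, XLOC_000029 and XLOC_000030 lay 19310 and 25821 bases from Adgb, androglobin, which is known from ciliated cells, and differed by −0.14 ± 0.31 and −0.13 ± 0.24 (adjusted p = 0.79 and 0.75) while Adgb rose by 2.41 ± 0.42 (adjusted p = 0.0011). XLOC_007570, within the span of Aurkb, a mitotic kinase, ran from 13.6 to 24.4 and from 8.49 to 21.1 in cortex, and the named locus rose from 1.13–8.13 to 13.8–69.0 (2.72 ± 0.40, adjusted p = 0.00036). XLOC_030994 ran from 51.4 to 85.9 and from 49.999 to 83.6 in cortex while its named neighbour rose by 2.91 ± 0.77 (adjusted p = 0.014, though 0.064 with edgeR and 0.064 without the libraries highest in choroid plexus genes), but that ratio (−2.86 ± 0.78, adjusted p = 0.027) was lost in 6 of 12 fits that left out 1 library (adjusted p up to 0.060) and without the libraries highest in choroid plexus genes (adjusted p = 0.10). The Maf neighbour XLOC_019119 fell in thalamus (−1.47 ± 0.50, adjusted p = 0.040) where Maf rose (0.60 ± 0.17, adjusted p = 0.020), and its own call was lost in 8 of 12 such fits (adjusted p up to 0.085) and with edgeR.

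Over all pairs, differences at unnamed loci correlated with those at the nearest gene. For loci within 5000 bases of a named gene (2371 pairs) the log2 differences of locus and gene correlated across pairs with Pearson's r = 0.48 in cortex, 0.46 in thalamus and 0.71 between regions (Spearman's rho 0.37, 0.40 and 0.55), and for pairs over 5000 and up to 50000 bases apart (1277 pairs) with r of 0.21, 0.26 and 0.41 (rho 0.27, 0.31 and 0.38). Loci that shared the span of their gene (846 pairs) gave r of 0.31, 0.30 and 0.64 and rho of 0.37, 0.36 and 0.56, so that r was lower than within 5000 bases in all 3 comparisons and rho in thalamus alone. Named loci with a named neighbour within 5000 bases gave r of 0.19, 0.14 and 0.18 (4280 pairs). Loci on the 3′ side of their gene (619 pairs) gave 0.55 in both TBI comparisons, and loci on the 5′ side (783 pairs) gave 0.40 and 0.39. These values describe pairs measured in the same libraries, many of which share a gene. Among unnamed loci within 5000 bases that fell in thalamus, 119 of 175 had a gene that fell too (68.0%) and 8 had one that rose, whereas among those that rose 39 of 113 (34.5%) had a gene that rose and 11 one that fell. In cortex the gene went the same way for 35 of 67 rises (52.2%) and 62 of 141 falls (44.0%), and the opposite way for 2 and 4. Among named loci within 5000 bases of another, the neighbour went the same way for 20.8% of rises and 21.5% of falls in thalamus and for 25.8% and 12.6% in cortex.

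**Figure D4:**
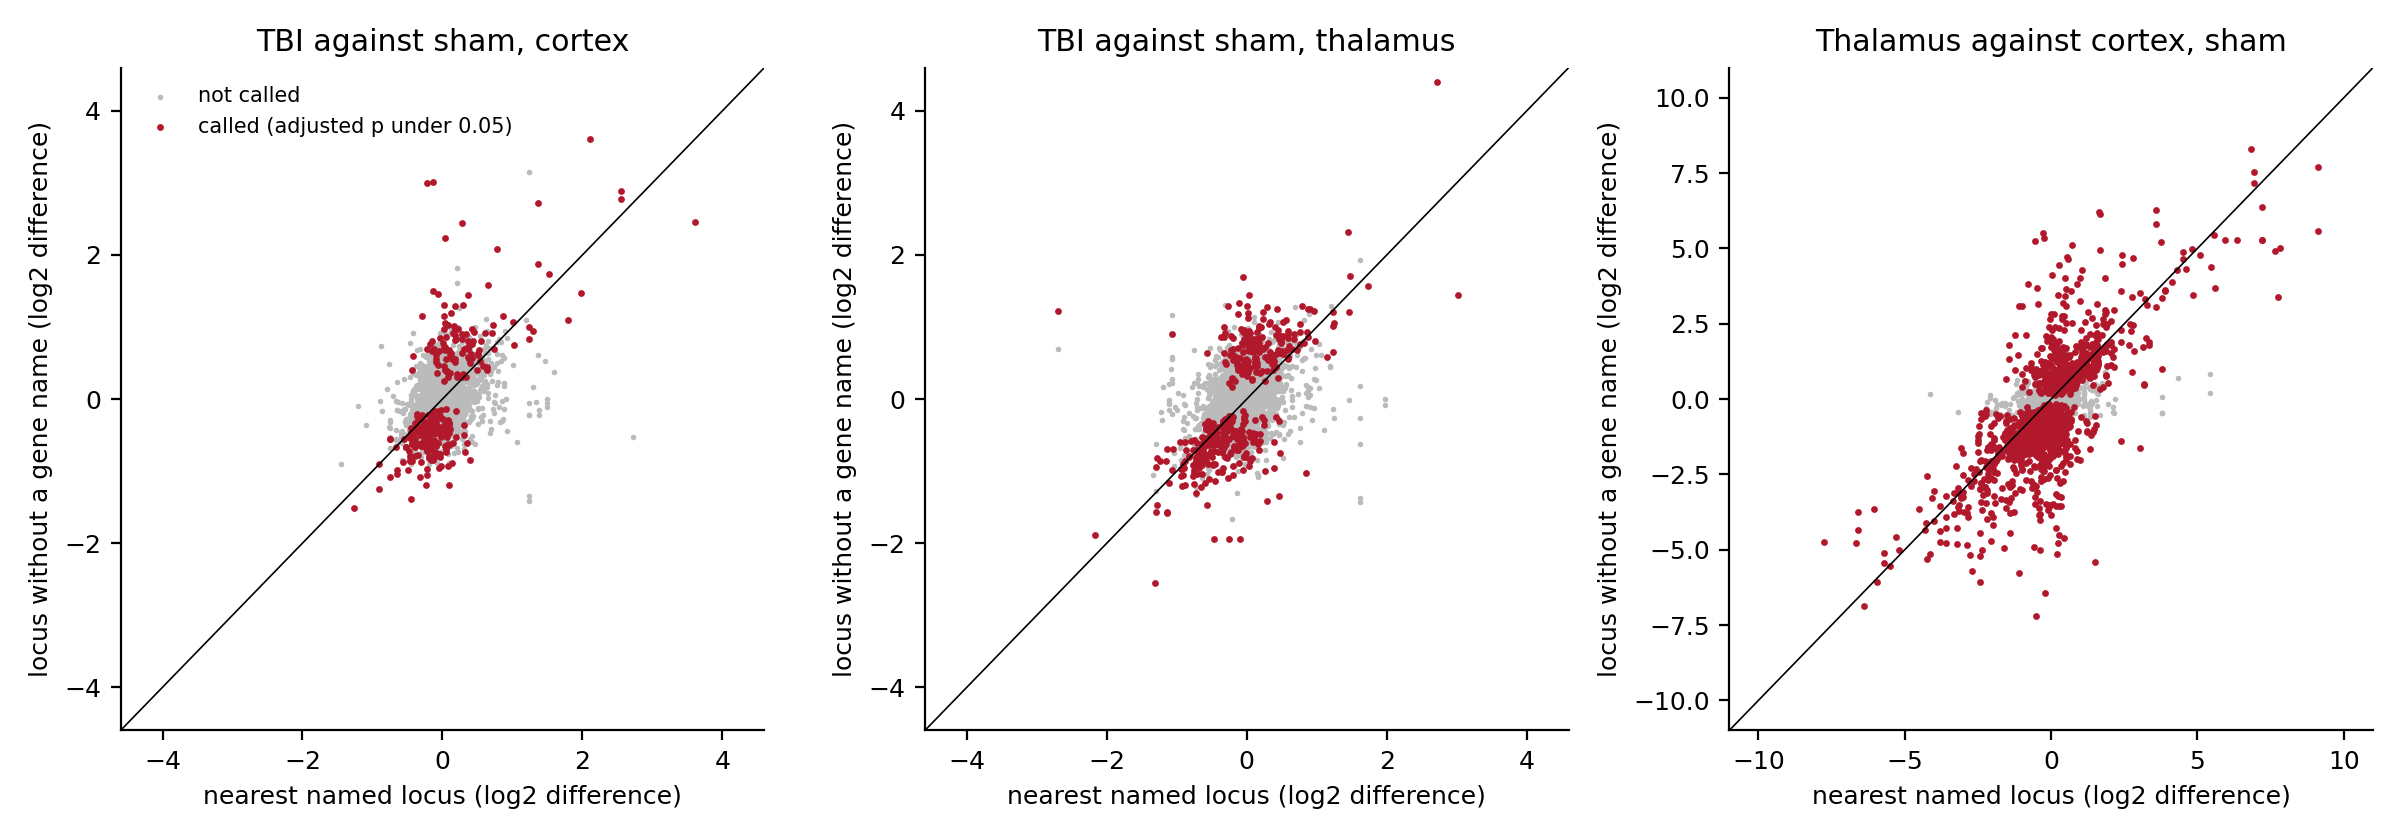
Log2 difference at each unnamed locus (y) against that of its nearest named gene (x) in cortex (TBI against sham), thalamus (TBI against sham) and between regions in sham rats, for pairs that overlap or lie within 5000 bases and whose gene was tested, with called loci in red. The clouds lie along the diagonal most clearly between regions, where r was 0.71 within 5000 bases.

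At the closest range, 295 loci lay within 250 bases of the 5′ side of a tested gene and 191 within 250 bases of the 3′ side. Between sham regions 130 of the 295 were called (44.1%, background 59.0%), 89 together with their gene in the same direction and 11 in the opposite one, and of the 191 the numbers were 110 (57.6%), 73 and 11. In thalamus after TBI, 37 loci on the 5′ side were called (12.5%, background 27.9%), 22 with their gene and 4 against it, and 21 on the 3′ side (11.0%), 11 with and 0 against.

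Neighbouring unnamed loci also moved together. The 634 loci called in cortex fell into 562 runs, and of 55 runs with 2 or more called loci 53 went 1 way throughout. In thalamus 74 of 76 such runs did so, and between regions 447 of 473. Loci of a run can be pieces of 1 transcript, so the number of separate events is nearer to the number of runs.

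The share of calls rose with level among unnamed loci, from 6.61% to 37.7% in cortex between the lowest and the highest class. At a mean of 10 to 30, 3.37% rose and 3.24% fell in cortex against 11.5% and 1.33% of named loci at that level, and at a mean of 1000 or more 2.63% rose and 35.1% fell against 8.13% and 23.1%. In each of the 5 classes the share that rose in cortex was lower, and the share that fell higher, among unnamed than among named loci. In thalamus the classes gave 5.27% higher and 3.59% lower at 10 to 30 (named 8.95% and 3.45%), 7.29% and 7.29% at 30 to 100 (16.7% and 5.19%), 8.18% and 15.3% at 100 to 300 (21.4% and 6.84%), and 10.5% and 29.8% at 1000 or more (10.1% and 32.3%). No test was made of these shares.

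**Figure D5:**
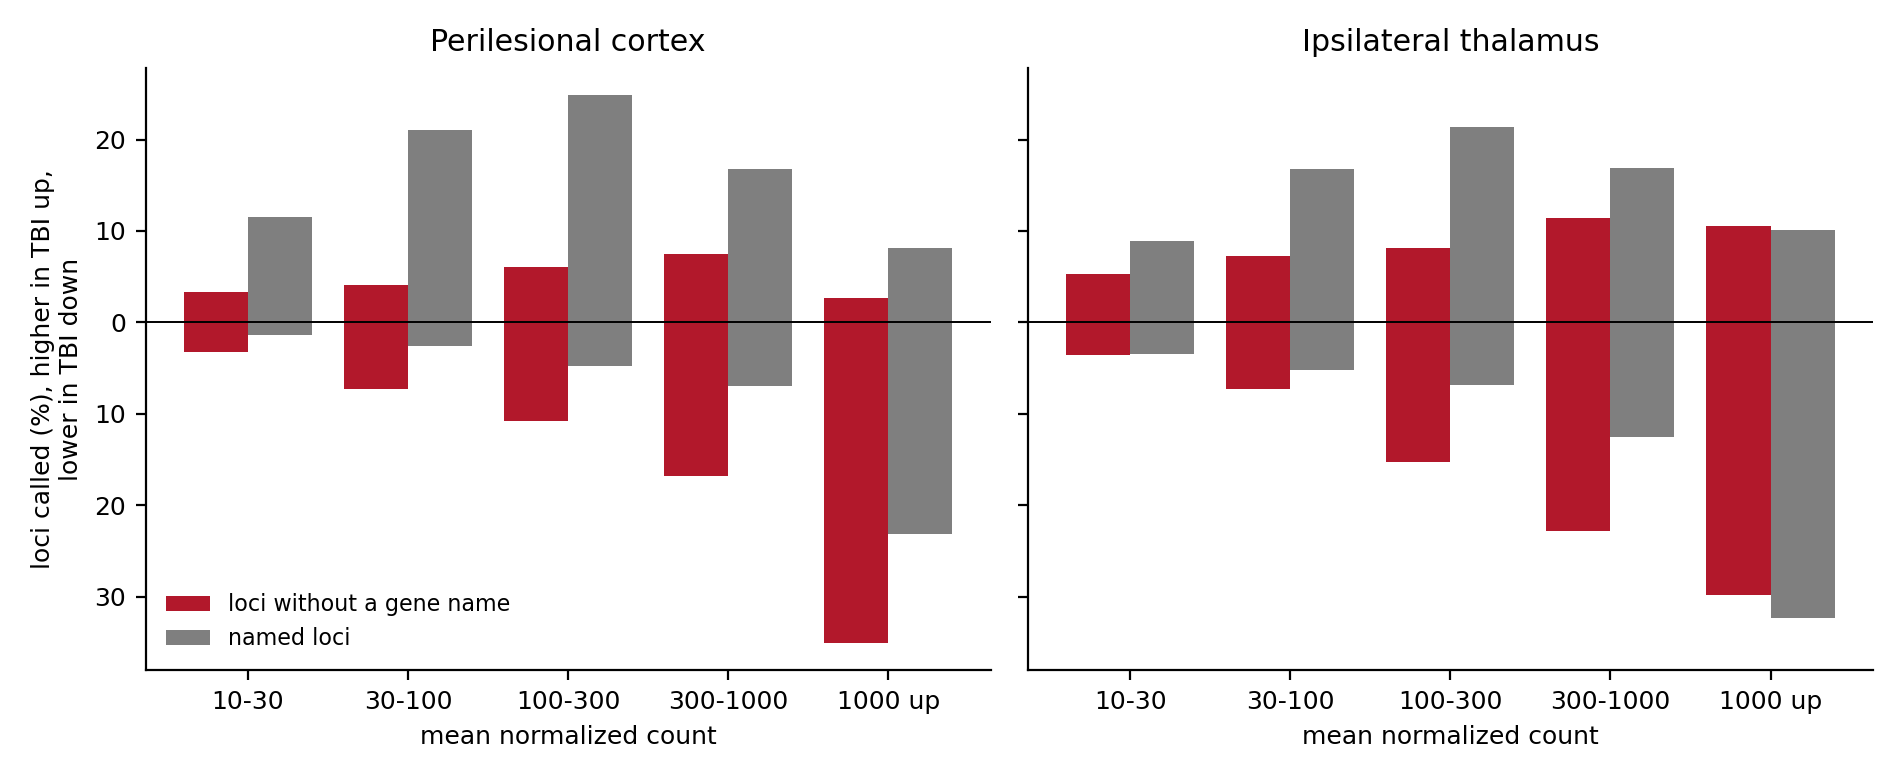
Percent of loci called higher (bars up) and lower (bars down) with TBI, by class of mean normalized count, for unnamed loci (red) and named loci (grey) in cortex and thalamus. In the class of 30 to 100, 4.10% of unnamed and 21.1% of named loci rose in cortex.

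Beside microRNA genes, 63 unnamed loci had a microRNA-named locus as their nearest (35 distinct ones), of which 0 rose and 4 fell in cortex by limma (1 and 5 at an unadjusted p under 0.05, and 0 and 3 by edgeR), 5 rose and 3 fell in thalamus (13 and 5 unadjusted, 8 and 3 by edgeR), and 7 were higher and 20 lower in sham thalamus than in sham cortex. As shares of the 63 these were 0% and 6.35% in cortex (background 11.0% and 11.5%), 7.94% and 4.76% in thalamus (11.6% and 16.3%), and 11.1% and 31.7% between regions (29.9% and 29.2%). XLOC_010920 (chr13:54048701-54058098), 2075 bases from Mir135b, ran from 449 to 690 (median 540) in sham cortex and from 201 to 357 (median 288) in TBI cortex, and from 95.5 to 144 and from 107 to 134 in sham and TBI thalamus. It fell in cortex without overlap (−0.94 ± 0.13, adjusted p = 0.00018), was lower in sham thalamus than in sham cortex (−2.13 ± 0.12), and the effects of TBI in the regions differed by 0.88 ± 0.17 (adjusted p = 0.0033). XLOC_026374 (chr3:89751989-89753417), 389 bases from a locus named for both ENSRNOG00000047747 and Mir129-2, ran from 438 to 653 (median 560) and from 272 to 418 (median 383) in cortex and from 338 to 454 (median 413) and from 229 to 358 (median 296) in thalamus. It fell in both regions, by 0.66 ± 0.13 (adjusted p = 0.0021) and 0.45 ± 0.12 (adjusted p = 0.010). Its ratio to that named locus was not called (−0.15 ± 0.12, adjusted p = 0.44, and 0.09 ± 0.11, adjusted p = 0.59). These are poly(A) fragments at loci beside the microRNA genes whose mature sequences are printed above, and the mature microRNAs were not measured in these libraries. The highest loci of this kind, XLOC_032962 (mean 2487), 24645 bases from a locus that holds Mir370, and XLOC_041998 with the span of Mir325 and Mir384 (mean 1729), had no called change with TBI (adjusted p of at least 0.47). These loci were named after their values had been seen.

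Counted by the list that holds the nearest gene, the groups of unnamed loci were small. Over all unnamed loci 10.5% were called with TBI in cortex and 13.9% in thalamus (background 22.5% and 27.9%), so few calls can be looked for in such groups. Of 3 loci beside microglia genes 1 rose in thalamus and 0 in cortex by limma (0 in cortex also at an unadjusted p under 0.05 and by edgeR), and 16 of the 16 microglia genes rose in thalamus and 14 in cortex. XLOC_031893 and XLOC_031894, 5418 and 7315 bases from the start side of C1qa, were at most 0.858 and 0 in sham cortex, ran from 5.73 to 103 and from 10.6 to 48.8 in sham thalamus and were not called with TBI there (0.47 ± 0.51 and 0.36 ± 0.42, adjusted p = 0.54 and 0.57, against 0.95 ± 0.10 for C1qa). Beside genes of oligodendrocytes lay 9 loci, 7 of them higher in sham thalamus, among them XLOC_009109 and XLOC_009110 within the span of Olig2 (1.01 ± 0.18 and 0.87 ± 0.20, adjusted p = 0.00010 and 0.0014). None of the 6 loci beside neuron genes passed the threshold with TBI in limma (0 at an unadjusted p under 0.05 and 0 by edgeR), where 11 of the 15 tested neuron loci fell in cortex and 13 in thalamus. XLOC_014685, within the span of Nefm, ran from 17.9 to 36.3 and from 11.7 to 32.5 in thalamus while Nefm fell by 1.02 ± 0.08. XLOC_018250, 14540 bases from the choroid plexus gene Ttr, had its highest values in rat 50 (329, sham thalamus) and rat 45 (421, TBI thalamus), as Ttr did (97841 and 229743). Single loci lay beside genes of endothelium (XLOC_009656, near Flt1) and erythroid cells (XLOC_041725, near Alas2), 5 beside immediate early genes, 15 beside imprinted and long noncoding genes, of which 3 were higher and 4 lower in thalamus, and 0 beside astrocyte genes. In TBI thalamus 1 locus each rose beside oligodendrocyte, endothelium, thalamus and immediate early genes. Beside thalamus, cortex and immediate early genes 1 each fell there. In TBI cortex 1 each rose beside oligodendrocyte and immediate early genes, and 1 fell beside cortex genes. The call at XLOC_009656 was lost without the libraries highest in choroid plexus genes (limma, adjusted p = 0.072). Each list is too short to read a share from.

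At the threshold of the rule, XLOC_013156, XLOC_017348 and XLOC_026954 lay just inside with means of 10.0, and XLOC_023212, XLOC_039084 and XLOC_000708 just outside with means of 9.99. XLOC_017348, past the end of the muscarinic receptor gene Chrm3, ran from 13.4 to 22.7 in sham cortex and from 0.955 to 5.31 in sham thalamus, and XLOC_039084 ran from 4.31 to 23.8 and from 2.97 to 9.55.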

How the data were processed

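The authors sequenced messenger RNA of 2 brain regions, perilesional cortex and ipsilateral thalamus, from 6 rats with TBI and 6 sham rats at 3 months after the operation (24 libraries). Per the submitters' processing notes, reads were aligned with TopHat2 (2.0.11) and Bowtie2 (2.2.2), and transcripts were assembled and quantified with Cufflinks (2.2.1) and Cuffdiff. The authors deposited a table with 1 row per assembled locus that holds, per library, a coverage-type signal, which is the number of fragments divided by a scaling factor of the library. The submitters' notes name Rnor_5.0 as build, while the methods of the study name an older assembly with Rnor_5.0 gene models, so coordinates were used within the table only. All columns of values had a sample (0 without one). Every positive value below 5000 fragments was a whole number of fragments once divided by the normalized count of 1 fragment in its library (tolerance 0.1).

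From these values, loci without a gene name and with a mean of at least 10 were taken, and all 21694 loci at that mean were fitted together with limma (3.58.1, R 4.3.3; empirical Bayes with a trend on the mean) on log2(value + 1), with Benjamini-Hochberg adjustment over all of them and a threshold of 0.05. TBI was compared with sham within each region, thalamus with cortex in sham rats, and the TBI effects between regions. The ratio of a locus to its nearest named locus was fitted over 16609 pairs, without the trend. Because the deposited values are scaled, limma was used, and edgeR (4.0.16, quasi-likelihood) on the recovered whole fragments was an alternative. The fits were tested on simulated data. For the side of a gene, strand was taken from RefSeq (GRCr8), in which 14479 of 15678 named loci matched by symbol or identifier.

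The libraries of a rat pair the regions by design. Deviations from the group means correlated between both libraries of a rat at 0.0706 to 0.481 (median 0.176, 12 rats), against −0.239 to 0.209 (median −0.0381, 60 pairs) for different rats of a group. As an alternative, the rat was a block.

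The loci, the gene lists and the tests were chosen with earlier results of these data known. Loci were named by a rule: the 10 highest means; the 8 largest rises and falls without overlap in each TBI comparison and between regions; the 4 largest differences of effect and of ratio in each direction; 3 loci on each side of the mean of 10; up to 3 per list with the smallest gap to a listed gene; and the nearest gene of each. Loci beside microRNA genes, XLOC_040547 beside Gbx2 and XLOC_022650 beside Lef1 were added after their values had been seen. Some loci that the rule names are not reported here. The lists covered microglia, astrocytes, oligodendrocytes, neurons, endothelium, choroid plexus, erythroid cells, thalamus, cortex, immediate early genes, and imprinted and long noncoding genes. Other alternatives were TMM scaling, added constants of 0.1 and 5, no filter or a mean of at least 50, another definition of the nearest gene, each library left out in turn, and, chosen after seeing the data, leaving out the library highest in choroid plexus genes in each group.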

Additional observations from a re-analysis of the deposited data

Results flagged for a closer look

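In 13 of 117 groups of 6 libraries examined at the named loci, 1 library lay apart from the others, with a gap to its nearest neighbour, as a share of the range of the group, past the 95% critical value of Dixon's test for 6 values. The rate of about 1 such group in 20 holds for independent groups of normally spread values and is no yardstick here. The loci were picked by their values, some are neighbours, and a group with reads in only 1 library always passes. They came from 9 rats, with 3 groups each for rat 50 and rat 63 and 1 each for the other 7. Rat 63 was the low library of TBI cortex at 3 of the loci between Pde12 and Asb14, at 73.8 normalized counts for XLOC_015046 (gap 0.679 of the range), 115 for XLOC_015049 (0.807) and 20.2 for XLOC_015048 (0.643). In TBI cortex, rat 45 was low at XLOC_018582 (12.7, gap 0.730) and rat 24 high at XLOC_000029 (44.1, gap 0.661). Rat 26 was low at XLOC_028047 in sham thalamus (33.4, gap 0.638), and rat 52 at XLOC_024883 in TBI thalamus (1.88, gap 0.674).

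At 6 loci 5 libraries of the group were at 0 and the gap was the whole range (1). These were XLOC_006907 in sham cortex (0.858 in rat 32), XLOC_039755 in sham cortex (2.23 in rat 50), and in sham thalamus XLOC_039337 (1.05 in rat 50), XLOC_021418 (2.50 in rat 34), XLOC_021419 (2.10 in rat 50) and XLOC_031132 (0.989 in rat 55). Each of these values is 3 fragments or fewer.

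The effect of TBI differed between the regions at 25 of the named loci in limma (adjusted p under 0.05 for the difference itself). The values are the log2 effect in thalamus minus that in cortex. It was higher in thalamus at XLOC_037459 (1.81), XLOC_009090 (1.68), XLOC_037212 (1.63), XLOC_034928 (1.45), XLOC_001920 (1.12) and XLOC_004972 (0.51). At XLOC_035272 (1.51) and XLOC_039337 (1.68) hardly any reads lay behind the effect in thalamus. The first was at 0 in all 12 thalamus libraries, so its value is the fall in cortex with the sign turned, and the second had reads in only 1 of 6 sham thalamus libraries. It was higher in cortex at the loci between Pde12 and Asb14 (XLOC_015047 −2.77, XLOC_015046 −2.70, XLOC_015049 −2.22 and XLOC_015048 −1.79), at those beside Six3 (XLOC_033169 −3.31 and XLOC_032196 −2.73), and at XLOC_032266 (−3.30), XLOC_021136 (−2.82), XLOC_023311 (−2.80), XLOC_039808 (−2.46), XLOC_013119 (−2.18) and XLOC_032006 (−1.66). The remaining values belong to loci that fell in thalamus, XLOC_037055 (−1.98), XLOC_008998 (−1.92), XLOC_026148 (−1.78), XLOC_026690 (−1.48) and XLOC_008997 (−1.34).

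Leaving out 1 library of 24 ended the call in 19 fits at XLOC_037055, 17 at XLOC_008997, 17 at XLOC_026148, 16 at XLOC_037212, 15 at XLOC_015048, 9 at XLOC_021136, 8 at XLOC_008998 and 1 at XLOC_004972. With 0.1 added before the logarithm it was not called at XLOC_035272 (adjusted p = 0.14), XLOC_008998 (adjusted p = 0.087), XLOC_039337 (adjusted p = 0.071), XLOC_026148 (adjusted p = 0.061), XLOC_021136 (adjusted p = 0.058) and XLOC_037212 (adjusted p = 0.050, just above the threshold). With edgeR it was not called at XLOC_035272 (adjusted p = 1.0), XLOC_039337 (adjusted p = 0.23) and XLOC_037055 (adjusted p = 0.057), and with TMM scaling not at XLOC_037055, XLOC_008997 and XLOC_026148 (adjusted p = 0.053, 0.052 and 0.053). Without the library highest in choroid plexus genes in each group, the adjusted p was 0.13 at XLOC_037055, 0.16 at XLOC_008997, 0.21 at XLOC_026148, 0.20 at XLOC_037212 and 0.075 at XLOC_035272.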

How the results depend on the processing

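Counts of called unnamed loci kept within 1.5 times their value with TMM scaling, edgeR on whole fragments and either added constant, in all 4 comparisons fitted that way. TMM scaling called 94.2% of the cortex and 91.2% of the thalamus loci again, and edgeR 90.1% and 87.3%. In thalamus the split of 395 higher and 442 lower became 442 and 368 with TMM scaling, 473 and 353 with edgeR and 448 and 419 without a filter. A mean of at least 50 left 375 calls in cortex, 477 in thalamus, 1144 between regions and 70 for the difference of effects, since fewer loci were tested, and without a filter the count between regions was 6168, since more were. Without the library highest in choroid plexus genes in each group, chosen after seeing the data, the counts were 294 in cortex, 534 in thalamus, 2865 between regions, 46 for the difference of effects, and 166 and 315 for the ratios in cortex and thalamus. That setting also has fewer samples, and its cause was not tested. With the rat as a replicate block the counts were 3145 between regions (96.5% of the calls shared) and 128 for the difference of effects, and the pairing ended 3 of 174 calls at named loci, among them XLOC_008998 (adjusted p = 0.061) and XLOC_026148 (adjusted p = 0.058) for the difference of effects. Leaving out each library in turn gave 459 to 727 calls in cortex (lowest without TBI cortex of rat 45, highest without TBI cortex of rat 63), 623 to 807 in thalamus, 2977 to 3120 between regions, 78 to 128 for the difference of effects, 239 to 417 for the ratio in cortex and 348 to 483 for the ratio in thalamus. With the nearest named gene limited to those with a mean of at least 10, the ratio changed at 458 and 670 loci. Loci overlapping or near a named locus numbered 3506 within 5000 bases, 2396 within 1000, 5201 within 50000 and 3385 with named loci of a mean of at least 10. Of 8348 checks of single named loci, 7687 kept direction and call, 660 lost the call and 1 reversed: the ratio of XLOC_006907 to Card14 in cortex, −0.17 with 5 added (adjusted p = 0.34). Low counts limit the loci near the mean of 10, where 3 fragments are a normalized count of 2.06 to 3.76.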
